A study of Homo sapiens with 18 samples.

Results

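Fanconi anemia and homologous recombination genes were followed in LNCaP cells whose E2F1 or E2F2 mRNA had been silenced. The set was chosen by gene symbol, as 37 genes of the Fanconi pathway, homologous recombination and the replication checkpoint, out of 56269 symbols in the count table. RAD54B has 2 identifiers in the table, one of them at 0 in all libraries, so the 37 genes fill 38 of 58037 lines. All 37 had enough counts to be tested, among 15185 tested genes.

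LNCaP is an established androgen-responsive line of human prostate cancer. Every group was kept in 9% charcoal-stripped serum, poor in androgen, and received a pool of siRNAs by Lipofectamine transfection. The 6 groups were E2F1 siRNA with R1881, E2F2 siRNA with R1881, control siRNA with R1881, E2F1 siRNA with vehicle, E2F2 siRNA with vehicle and control siRNA with vehicle, with 3 biological replicates each. R1881, a synthetic androgen, was given at 0.1 nM and vehicle was ethanol, and cells were harvested 48 h later. Treatment followed transfection by 42 h or 48 h, as the labels hold both values. The control pool was non-targeting, the silencing was transient, and the cells were 1 line.

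The Fanconi pathway removes crosslinks between the strands of DNA when they stall a replication fork. A core complex ubiquitinates the FANCD2-FANCI clamp, nucleases open the lesion, and the resulting break is repaired by homologous recombination, in which BRCA1, PALB2 and BRCA2 take part. The ATR and CHEK1 kinases hold the cell cycle while this goes on. Many of these genes are transcribed mainly in S and G2 phase, and E2F1 and E2F2 are among the activators of S-phase transcription.

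The libraries held 10930204 to 14819879 gene counts. E2F1 mRNA was 9.69 ± 0.876 CPM with E2F1 siRNA and R1881, 24.1 ± 2.29 CPM with E2F2 siRNA and R1881, and 74.4 ± 6.32 CPM with control siRNA and R1881 (SD, n = 3 each; CPM is the count scaled to library size by TMM). With vehicle, E2F1 was 6.83 ± 1.69 CPM with E2F1 siRNA, 12.6 ± 2.25 CPM with E2F2 siRNA and 37.3 ± 5.0 CPM with control siRNA. E2F1 thus fell in cells given the E2F2 pool as well, by 1.62 on the log2 scale with R1881 and by 1.57 with vehicle (edgeR quasi-likelihood test, Benjamini-Hochberg adjusted p = 1.69e-06 and 3.71e-06). E2F2 mRNA was 0.195 ± 0.192 CPM with E2F2 siRNA, 1.45 ± 0.274 CPM with E2F1 siRNA and 3.43 ± 1.12 CPM with control siRNA, all with R1881. With vehicle it was 0.121 ± 0.142, 1.87 ± 0.543 and 2.29 ± 0.877 CPM in the same order. The luminal markers of LNCaP reported here were present in every library, with KLK3 at 44.2 to 2370 CPM and TMPRSS2 at 68.5 to 1080 CPM. The summed level of 14 markers of other cell types was 78.9 to 90.3 CPM with E2F2 siRNA and vehicle and 35.1 to 57.1 CPM with control siRNA and vehicle. With R1881 the sum was 22.6 to 26.9 CPM with E2F1 siRNA, 45.3 to 54.8 CPM with E2F2 siRNA and 34.6 to 36.9 CPM with control siRNA. With E2F1 siRNA and vehicle it was 25.5 to 29.2 CPM. Only 4 of the 14 passed the count filter (VWF, COL1A1, COL3A1 and KRT14), CD3E was at 0 throughout, and PTPRC, PECAM1 and CDH5 stayed at or under 0.153 CPM. VWF fell by 0.99 and 1.09 with E2F1 siRNA in R1881 and vehicle and rose by 1.60 with E2F2 siRNA in vehicle (adjusted p = 0.000674, 0.00054 and 1.2e-06). The part of these genes in the results was not tested.

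The libraries numbered 3 stood apart from the other replicates. In a comparison of counts over genes, the chi-square over its degrees of freedom was 1.76 to 4.27 between replicates 1 and 2 of a group and 7.62 to 89.5 between either of them and replicate 3. Its deviation from the group mean followed the GC content of the gene, with r = 0.52 to 0.82 across 12513 genes. The repair genes here have a GC content of 36.1% to 63.8% (median 42.4%), and in control siRNA with vehicle replicate 3 lay below the mean of replicates 1 and 2 for 29 of the 37, with a median log2 ratio of -0.68 over all 37. BRCA2, an AT-rich member, was at 36.0 and 42.8 CPM in replicates 1 and 2 of control siRNA with vehicle and at 8.61 CPM in replicate 3. FANCB was at 7.21, 6.16 and 0.601 CPM in the same libraries. Results from replicates 1 and 2 alone are therefore given beside those from all libraries.

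**Figure D1:**
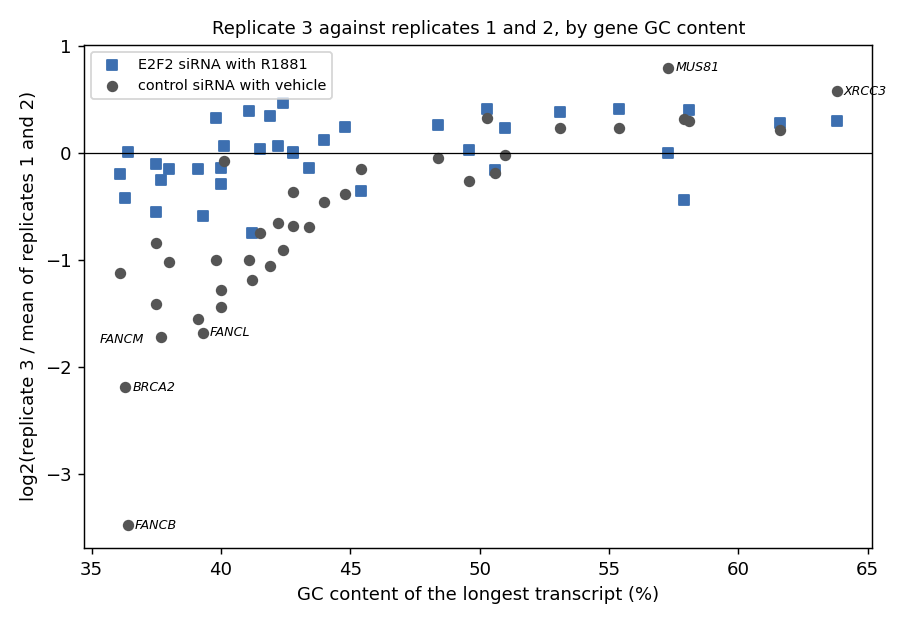
Log2 ratio of replicate 3 to the mean of replicates 1 and 2 for each of the 37 genes (vertical axis) against the GC content of its longest transcript in percent (horizontal axis), in E2F2 siRNA with R1881 (blue squares) and control siRNA with vehicle (grey circles). In control siRNA with vehicle the ratio spans -3.48 to 0.80 and is lowest for genes poor in GC (r = 0.82 over 37 genes), while in E2F2 siRNA with R1881 it spans -0.75 to 0.47 (r = 0.42).

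In the median of the 37, the repair genes were at their highest in control cells given R1881 and at their lowest in cells given E2F2 siRNA and vehicle. R1881 raised 25 of the 37 in control cells and lowered none, where 13.8% of all tested genes rose. With R1881, E2F1 siRNA lowered 15 of 37 (4.92% of all tested genes fell, 4.42% rose and 9.34% changed) and E2F2 siRNA lowered 27 of 37 (14.4% of all tested genes fell), and neither raised any. With vehicle, E2F2 siRNA lowered 23 of 37 (13.1% of all tested genes fell), and E2F1 siRNA changed 0 of 37 by edgeR and by DESeq2, with 3 at an unadjusted p under 0.05 (2.36% of all tested genes rose, 2.92% fell and 5.28% changed). The median log2 fold change of the 37 was 0.75 for R1881 in control cells, -0.54 for E2F1 siRNA and -1.34 for E2F2 siRNA with R1881, and 0.05 for E2F1 siRNA and -1.03 for E2F2 siRNA with vehicle. Over all tested genes these medians lay between -0.01 and 0.03. Both E2F pools were set against the same control libraries, and the control libraries with R1881 also enter the R1881 response.

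In bulk RNA, fewer cells in a phase of the cycle and less RNA per cell cannot be told apart. Beside the repair genes, 10 cell-cycle reference genes were followed (MKI67, PCNA, MCM2, CCNE1, CCNE2, CCNA2, CCNB1, TOP2A, CDK1 and PLK1). R1881 raised 8 of them in control cells, E2F1 siRNA lowered 8 and E2F2 siRNA lowered 10 with R1881, and E2F2 siRNA lowered 8 with vehicle. Their median log2 fold changes in the same order were 0.90, -0.91, -1.58 and -1.38, and -0.12 for E2F1 siRNA with vehicle. The proliferation antigen MKI67, for example, fell by 0.97 with E2F1 siRNA and by 1.56 with E2F2 siRNA on the log2 scale, both with R1881 (adjusted p = 0.000672 and 1.89e-06). The part of cell-cycle phase in the result was not tested.

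With replicates 1 and 2 only, every call just counted was kept. The counts became 33 of 37 for R1881 in control cells (31 higher and 2 lower), 30 for E2F1 siRNA with R1881 (all lower), 33 for E2F2 siRNA with R1881 (32 lower and 1 higher), 3 for E2F1 siRNA with vehicle (all lower) and 31 for E2F2 siRNA with vehicle (29 lower and 2 higher). More of all tested genes were called in either direction as well, in the same order 47.3%, 29.5%, 51.4%, 18.8% and 45.7%. The 3 genes for E2F1 siRNA with vehicle were FANCD2, FANCI and EXO1. They fell by 0.31, 0.32 and 0.50 on the log2 scale, and the same count of 3 was had when only replicate 3 of control siRNA with vehicle was left out. A fit to the libraries of control siRNA alone called 12 of 37 for R1881, all higher, and 12.9% of all tested genes. The calls of FANCD2, BRCA1, BRIP1, PALB2, RAD51C, RAD51AP1, XRCC2, EXO1, BLM, CHEK1, TOPBP1, RDM1 and POLQ were lost there (adjusted p = 0.0512 to 0.198). A fit to E2F2 and control siRNA with vehicle alone called 12.5% of all tested genes and lost FANCE, BRIP1, XRCC2, XRCC3, BLM and RBBP8 (adjusted p = 0.0631 to 0.0943).

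**Figure D2:**
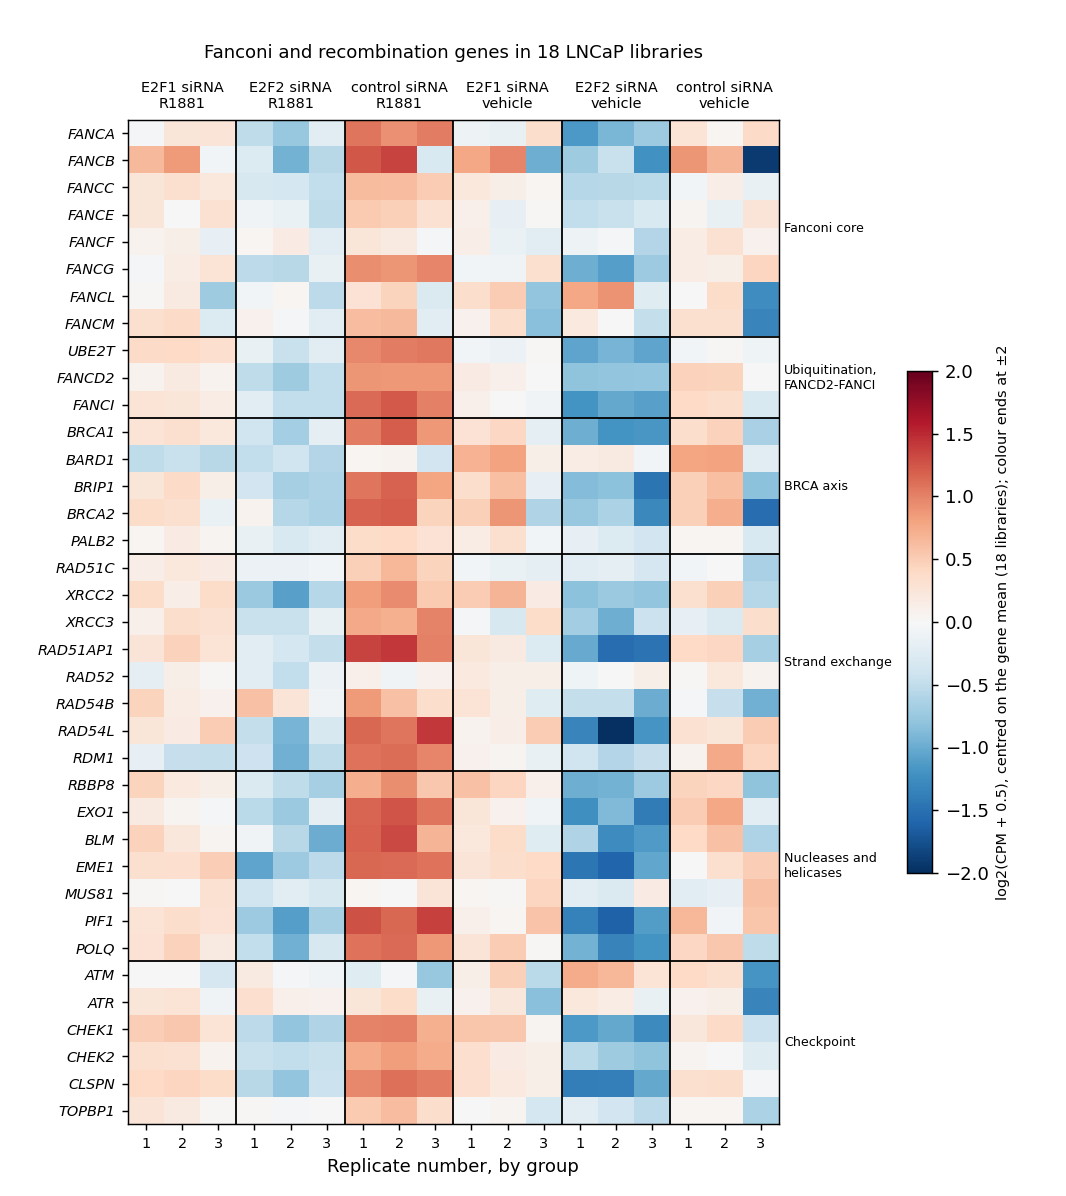
Level of each of the 37 genes (lines, by role) in each of the 18 libraries (columns, 3 replicates per group), as log2(CPM + 0.5) centred on the gene's mean over all libraries. Most genes are red (above their mean) in control siRNA with R1881, whose libraries have medians of 0.67 to 0.92 over the genes, and blue in E2F2 siRNA with vehicle, whose medians are -0.78 to -0.72. ATM, for example, does not follow that order.

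E2F proteins bind motifs near the starts of many S-phase genes, so the promoters were searched as a description. RefSeq promoters (GRCh38.p14, 250 bases before to 50 after the start) were found for 34 of the 37 genes, without FANCI, RAD54B and RDM1. Only the first promoter listed for each gene was searched. For FANCC, RAD52 and RBBP8, for example, it lay well inside the gene, far from the outermost start. A gene counted as without a word may hold it at another start. An E2F-type word, one of TTTCCCGC, TTTCGCGC, TTTGCCGC and TTTGGCGC on either strand, stood in 7 of the 34 (20.6%), against 3.31% of 35116 promoters. The 7 were FANCA, FANCC, FANCD2, XRCC2, EXO1, CLSPN and TOPBP1. A CCAAT box on either strand stood in 16 (47.1%, against 34.6% of all), and the word TTTGAA, the core of the cell-cycle homology region, in 6 (17.6%, against 15.2% of all). No base of the windows printed below was shared by different motifs.

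The windows below run up to the start site and a few bases past it, on the gene's own strand, with the motif words in capitals. ATTGG is CCAAT, and GCGGGAAA and GCGCGAAA are E2F-type words, read on the other strand. CLSPN, FANCD2, EXO1 and TOPBP1 are shown for the E2F-type word at their start, and UBE2T because it changed in the most comparisons and its promoter holds CCAAT and TTTGAA words but no E2F-type word.
CLSPN (chr1:35769970-35770107, minus strand): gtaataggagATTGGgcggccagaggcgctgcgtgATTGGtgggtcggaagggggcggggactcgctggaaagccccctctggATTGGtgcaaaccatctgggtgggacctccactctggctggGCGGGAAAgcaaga
FANCD2 (chr3:10026337-10026448, plus strand): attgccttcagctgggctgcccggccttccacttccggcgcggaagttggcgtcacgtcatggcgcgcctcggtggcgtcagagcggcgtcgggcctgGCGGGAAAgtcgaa
EXO1 (chr1:241848104-241848221, plus strand): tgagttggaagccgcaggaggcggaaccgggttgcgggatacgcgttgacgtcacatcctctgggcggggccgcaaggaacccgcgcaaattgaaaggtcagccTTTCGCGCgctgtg
TOPBP1 (chr3:133661935-133662041, minus strand): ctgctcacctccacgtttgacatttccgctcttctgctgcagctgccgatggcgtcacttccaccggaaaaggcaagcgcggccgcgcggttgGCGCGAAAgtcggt
UBE2T (chr1:202341931-202342099, minus strand): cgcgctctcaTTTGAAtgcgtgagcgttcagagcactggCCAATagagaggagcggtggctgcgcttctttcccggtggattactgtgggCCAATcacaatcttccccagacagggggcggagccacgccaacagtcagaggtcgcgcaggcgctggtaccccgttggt
Of the 7 genes with an E2F-type word, R1881 raised 7 in control cells, E2F1 siRNA lowered 5 and E2F2 siRNA lowered 7 with R1881, and E2F2 siRNA lowered 6 with vehicle. Of the 27 without one in the promoter searched, the same comparisons counted 15, 8, 18 and 15. The median log2 fold changes were -1.51 with the word and -1.27 without it for E2F2 siRNA with R1881, and 0.66 and 0.75 for R1881 in control cells.

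At the ubiquitination step, UBE2T, FANCD2 and FANCI all moved in 4 of the 5 comparisons. FANCL, the ubiquitin ligase of the core complex, was counted with that complex and was called in none of the 5. UBE2T is the ubiquitin-conjugating enzyme that works with the core complex, and FANCD2 and FANCI are its substrates. UBE2T (chr1:202331657-202341980, GRCh38, minus strand) was also the most highly expressed of the 37 per length in control cells with R1881, at 34.3 CPM per kb of exon. With R1881, UBE2T was at 36.5, 36.7 and 35.1 CPM with E2F1 siRNA, at 24.9, 20.3 and 23.7 CPM with E2F2 siRNA, and at 54.4, 56.8 and 58.5 CPM with control siRNA. With vehicle it was at 26.7, 25.6 and 28.2 CPM with E2F1 siRNA, at 13.1, 14.3 and 13.1 CPM with E2F2 siRNA, and at 26.7, 28.2 and 26.2 CPM with control siRNA. The 3 pools did not overlap with R1881, and with vehicle only E2F2 siRNA stood below the rest. UBE2T rose 2.09-fold with R1881 in control cells (log2 1.07 ± 0.09 SE, adjusted p = 2.48e-07). It fell by 0.65 with E2F1 siRNA and by 1.30 with E2F2 siRNA on the log2 scale with R1881 (adjusted p = 0.000203 and 5.95e-08), and by 1.00 with E2F2 siRNA and vehicle (adjusted p = 1.05e-06).

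FANCD2 (chr3:10026414-10101930, plus strand) is the clamp subunit whose ubiquitination is the usual readout of the pathway. With R1881 FANCD2 was at 55.1, 59.4 and 55.1 CPM with E2F1 siRNA, at 36.9, 31.9 and 37.4 CPM with E2F2 siRNA, and at 97.0, 96.0 and 96.0 CPM with control siRNA. With vehicle FANCD2 was at 59.2, 56.3 and 52.4 CPM with E2F1 siRNA, at 30.0, 30.3 and 30.4 CPM with E2F2 siRNA, and at 72.4, 71.4 and 52.3 CPM with control siRNA. With E2F1 siRNA the R1881 and vehicle libraries overlapped, and replicate 3 of control siRNA with vehicle lay at the level of the lowest E2F1 siRNA library. FANCD2 rose 1.47-fold with R1881 in control cells (log2 0.56 ± 0.11, adjusted p = 0.00108). With R1881 it fell by 0.77 with E2F1 siRNA and by 1.45 with E2F2 siRNA (adjusted p = 0.000293 and 1.83e-07), and with vehicle by 1.11 with E2F2 siRNA (adjusted p = 2.27e-06).

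FANCI (chr15:89243949-89317261, plus strand) is the partner of FANCD2 in the clamp. With R1881 FANCI was at 89.1, 87.5 and 81.4 CPM with E2F1 siRNA, at 63.0, 52.1 and 52.3 CPM with E2F2 siRNA, and at 161, 173 and 148 CPM with control siRNA. With vehicle FANCI was at 79.0, 73.3 and 70.1 CPM with E2F1 siRNA, at 31.9, 35.9 and 34.5 CPM with E2F2 siRNA, and at 97.2, 93.5 and 59.2 CPM with control siRNA. The order of the pools with R1881 was that of FANCD2, and replicate 3 of control siRNA with vehicle again stood low. FANCI rose 1.93-fold with R1881 in control cells (log2 0.95 ± 0.14, adjusted p = 0.000137) and fell by 0.90 with E2F1 siRNA and by 1.53 with E2F2 siRNA in R1881 (adjusted p = 0.000808 and 1.43e-06).

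**Figure D3:**
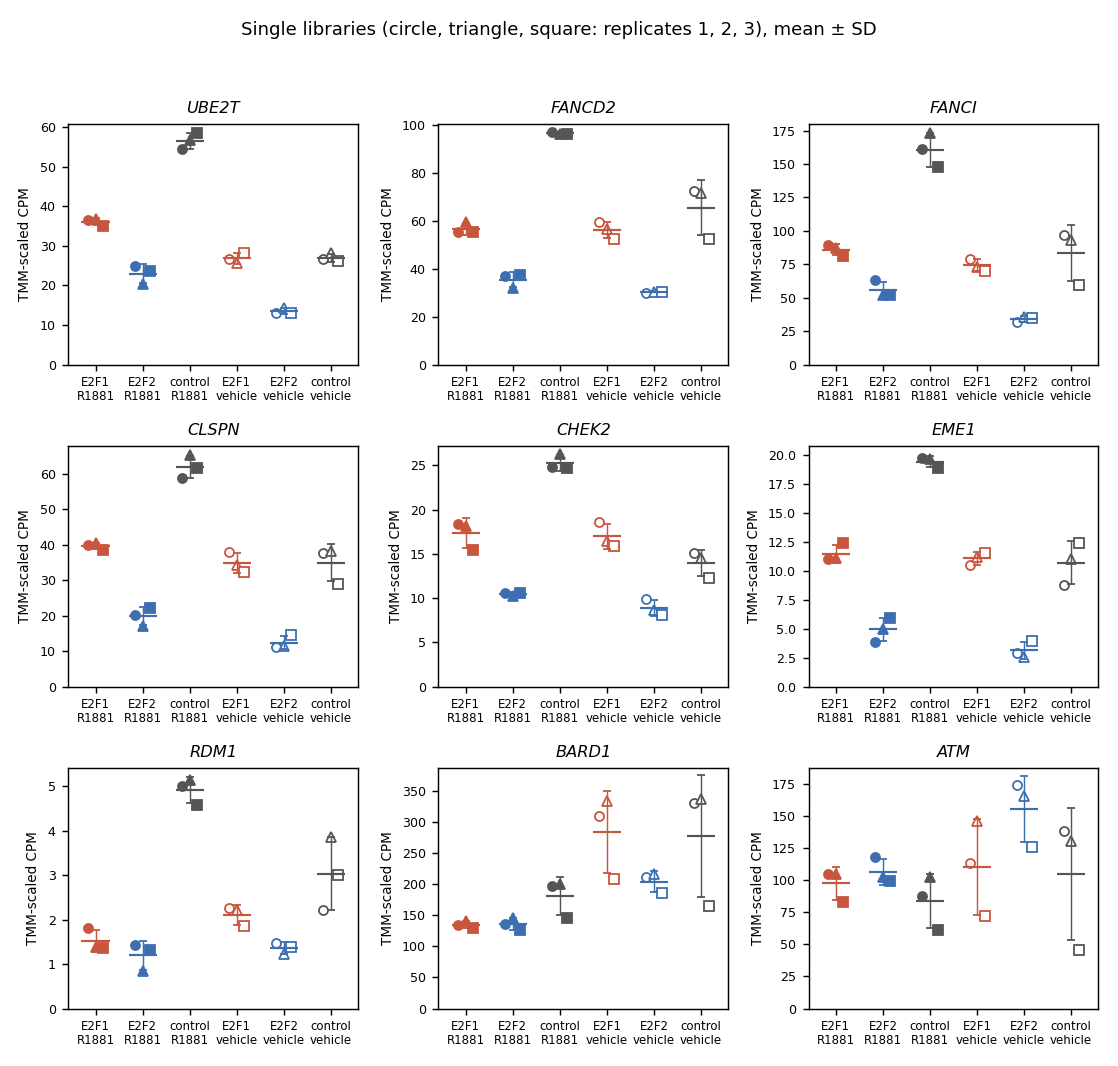
TMM-scaled CPM of 9 genes in each library (vertical axes, from 0), by siRNA pool and treatment; circles, triangles and squares are replicates 1, 2 and 3, filled with R1881 and open with vehicle, and lines give the mean ± SD. UBE2T, FANCD2, FANCI, CLSPN, CHEK2, EME1 and RDM1 are highest in control siRNA with R1881 (UBE2T 56.6 ± 2.04 CPM). BARD1 and ATM are instead lower with R1881 than with vehicle in the mean of each pool, and for ATM single libraries overlap with E2F1 and with control siRNA.

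Of the 8 genes of the Fanconi core complex, 3 rose with R1881 in control cells, 3 fell with E2F1 siRNA and 4 with E2F2 siRNA in R1881, and 4 fell with E2F2 siRNA in vehicle. FANCA, FANCC and FANCG, which are structural subunits, rose with R1881 in control cells and fell with each E2F pool in R1881, and FANCE fell with the E2F2 pool. Exons of ZNF276 on the opposite strand cover 23.64% of FANCA, and those of VRK2 cover 18.74% of FANCL. FANCA fell by 0.86 with E2F1 siRNA and by 1.51 with E2F2 siRNA in R1881, and FANCG by 0.80 and 1.34. FANCF, FANCL (the ubiquitin ligase of the complex), FANCM (the translocase that anchors it) and FANCB were called in none of the 5 comparisons. Their log2 fold changes for E2F2 siRNA with R1881 were -0.13 ± 0.15, -0.39 ± 0.45, -0.47 ± 0.39 and -1.69 ± 0.68. For FANCB that comparison passed by DESeq2 and with no count filter (adjusted p = 0.0392 and 0.0275). With replicates 1 and 2 only, FANCB fell by 2.07 and FANCM by 0.62 (adjusted p = 3.46e-09 and 1.38e-05). For E2F2 siRNA with vehicle the same libraries gave -1.54 for FANCB, -0.30 for FANCF and 0.67 for FANCL (adjusted p = 4.4e-06, 0.0101 and 0.00243).

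FANCC (chr9:95099054-95426796, minus strand) is given by library because its change was small and regular. With R1881 FANCC was at 31.1, 33.1 and 30.6 CPM with E2F1 siRNA, at 20.9, 20.6 and 18.6 CPM with E2F2 siRNA, and at 41.0, 40.6 and 37.5 CPM with control siRNA. With vehicle FANCC was at 30.4, 28.6 and 26.9 CPM with E2F1 siRNA, at 17.5, 17.7 and 18.0 CPM with E2F2 siRNA, and at 25.4, 28.8 and 23.8 CPM with control siRNA. The 3 pools did not overlap with R1881, and with vehicle E2F2 siRNA lay below the others. FANCC rose 1.53-fold with R1881 in control cells (adjusted p = 0.000117) and fell by 0.33 with E2F1 siRNA and by 0.99 with E2F2 siRNA in R1881 (adjusted p = 0.0324 and 1.1e-06). The call for E2F1 siRNA was lost when any library but replicate 3 of control siRNA was left out (adjusted p = 0.0616 to 0.128) and with no count filter (adjusted p = 0.187).

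On the BRCA axis, BRCA1, the ubiquitin ligase that promotes recombination, and BRIP1, a helicase that binds it, rose with R1881 in control cells and fell with E2F2 siRNA under both treatments, though the vehicle call of BRIP1 was lost when the groups compared were fitted alone (adjusted p = 0.0795). BRCA1 averaged 58.8 ± 2.14 CPM with E2F1 siRNA, 36.6 ± 6.33 CPM with E2F2 siRNA and 100 ± 12.3 CPM with control siRNA, all with R1881. It fell by 0.77 with E2F1 siRNA (adjusted p = 0.0415), but not past the threshold when any 1 of the 6 libraries compared was left out (adjusted p = 0.055 to 0.154). It fell by 1.46 with E2F2 siRNA (adjusted p = 0.000171). PALB2, the bridge between BRCA1 and BRCA2, rose by 0.42 with R1881 in control cells and fell by 0.59 with E2F2 siRNA in R1881 (adjusted p = 0.0144 and 0.00145). BRCA2, a mediator of recombination, fell by 1.35 with E2F2 siRNA in R1881 (adjusted p = 0.0362). That call was lost without replicate 2 or 3 of E2F2 siRNA or replicate 1 or 2 of control siRNA (adjusted p = 0.0945 to 0.118). Without replicate 3 in any group the BRCA2 fold change for E2F2 siRNA with vehicle was -1.33 (adjusted p = 8.23e-09), against -1.07 ± 0.47 (adjusted p = 0.106) over all libraries.

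BARD1, the obligate partner of BRCA1, went the other way with R1881. BARD1 (chr2:214725646-214809711, minus strand) was at 135, 140 and 130 CPM with E2F1 siRNA and R1881, against 309, 333 and 208 CPM with E2F1 siRNA and vehicle. With E2F2 siRNA it was at 136, 145 and 127 CPM with R1881 and at 211, 216 and 185 CPM with vehicle, and with control siRNA at 197, 200 and 146 CPM with R1881 and at 330, 336 and 164 CPM with vehicle. The R1881 and vehicle libraries did not overlap with either E2F pool, and with control siRNA they overlapped only through replicate 3. BARD1 fell by 1.07 ± 0.22 on the log2 scale with R1881 in E2F1 siRNA cells (adjusted p = 0.00233). The fold changes were -0.58 ± 0.22 in E2F2 siRNA cells (adjusted p = 0.0709) and -0.61 ± 0.22 in control cells (adjusted p = 0.0518), and with the replicate number as a block both passed the test (adjusted p = 0.0038 and 0.00307). In control cells the sign for BARD1, not called there, was opposite to that for BRCA1, which rose by 0.91 (adjusted p = 0.00654). In E2F1 siRNA cells, where BARD1 was called, BRCA1 was at 0.08 ± 0.23 (adjusted p = 0.884). In E2F2 siRNA cells BRCA1 was at 0.72 ± 0.23 (adjusted p = 0.0361).

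Among the strand-exchange genes, 7 of 8 rose with R1881 in control cells, 3 fell with E2F1 siRNA and 6 with E2F2 siRNA in R1881, and 5 fell with E2F2 siRNA in vehicle. RAD51AP1, a cofactor of strand exchange, rose by 1.17 ± 0.24 with R1881 and fell by 1.67 ± 0.25 with E2F2 siRNA in R1881 (adjusted p = 0.00155 and 8.75e-05). Its fall of 0.96 with E2F1 siRNA was lost without replicate 1 or 3 of E2F1 siRNA or replicate 1 or 2 of control siRNA (adjusted p = 0.0654 to 0.0749). RAD54L, a motor protein of strand exchange, fell by 0.92 with E2F1 siRNA and by 1.81 with E2F2 siRNA in R1881 (adjusted p = 0.00859 and 9.61e-06). XRCC2, XRCC3 and RAD51C, which belong to related complexes of strand exchange, fell with E2F2 siRNA in R1881, by 1.60, 1.19 and 0.64. RAD52, which anneals single strands, was called in none of the 5 comparisons. For E2F2 siRNA with R1881 it was at -0.33 ± 0.12 (adjusted p = 0.0586), and with replicates 1 and 2 only it passed at -0.39 (adjusted p = 0.0388). Exons of KLC1 cover 76.68% of the exon bases of XRCC3, and those of LRRC41 cover 25.09% of RAD54L, on the opposite strand, and the strand setting of the counts is not given in the sources used here.

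RDM1 (chr17:35918066-35930773, minus strand), named for a motif it shares with RAD52, had the largest fall with E2F1 siRNA among the 37 in R1881. With R1881 RDM1 was at 1.81, 1.39 and 1.36 CPM with E2F1 siRNA, at 1.44, 0.836 and 1.33 CPM with E2F2 siRNA, and at 5.01, 5.14 and 4.59 CPM with control siRNA. With vehicle RDM1 was at 2.27, 2.21 and 1.85 CPM with E2F1 siRNA, at 1.48, 1.23 and 1.38 CPM with E2F2 siRNA, and at 2.23, 3.87 and 3.0 CPM with control siRNA. The E2F pools overlapped each other with R1881 and lay far below control. RDM1 fell by 1.69 ± 0.21 with E2F1 siRNA and by 2.02 ± 0.22 with E2F2 siRNA in R1881 (adjusted p = 0.00012 and 5.41e-06). It was a rare transcript, with 10 to 75 counts in a library.

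RAD54B (chr8:94371960-94475109, minus strand), a relative of RAD54L, had the lowest level per kb of full exon length in control cells with R1881, at 1.61 CPM per kb. With R1881 RAD54B was at 7.63, 6.06 and 5.79 CPM with E2F1 siRNA, at 8.45, 6.61 and 5.16 CPM with E2F2 siRNA, and at 10.2, 8.43 and 7.09 CPM with control siRNA. With vehicle RAD54B was at 6.66, 5.92 and 4.54 CPM with E2F1 siRNA, at 3.79, 3.77 and 2.5 CPM with E2F2 siRNA, and at 5.3, 3.8 and 2.54 CPM with control siRNA. It rose 2.22-fold with R1881 in control cells (log2 1.15 ± 0.26, adjusted p = 0.00307). Against control siRNA it passed with neither E2F pool under either treatment. With R1881 it rose by 1.01 ± 0.27 in E2F2 siRNA cells (adjusted p = 0.0123) and was at 0.18 ± 0.25 in E2F1 siRNA cells (adjusted p = 0.722). With the replicate number as a block it was 0.58 higher with E2F1 siRNA than with control siRNA in vehicle (adjusted p = 0.0127), the only 1 of the 37 called there (12.7% of all tested genes), and 0.40 lower in R1881 (adjusted p = 0.037). Exons of FSBP, on the same strand, cover 59.08% of its exon bases. How reads in the shared bases were counted is not given, so the level of RAD54B per length may be understated and its rank is uncertain.

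Of the 7 nucleases and helicases, 5 rose with R1881 in control cells, 3 fell with E2F1 siRNA and 6 with E2F2 siRNA in R1881, and 6 fell with E2F2 siRNA in vehicle. PIF1, a helicase that unwinds stalled structures, averaged 5.7 ± 0.183 CPM with E2F1 siRNA, 2.35 ± 0.443 CPM with E2F2 siRNA and 11.5 ± 0.83 CPM with control siRNA, all with R1881. Its fall of 2.29 ± 0.22 with E2F2 siRNA in R1881 was the largest among the 37 (adjusted p = 1.34e-06), and it fell by 1.01 with E2F1 siRNA (adjusted p = 0.0038). EXO1, which resects the broken end over long distances, fell by 1.12 with E2F1 siRNA and by 1.69 with E2F2 siRNA in R1881 (adjusted p = 0.00302 and 2.86e-05). RBBP8, which starts that resection, fell by 1.24 with E2F2 siRNA, BLM, a helicase that takes joint molecules apart, by 1.66, and POLQ, the polymerase of an error-prone back-up pathway, by 1.61. The 6 of 7 genes that fell with E2F2 siRNA in R1881 also fell with it in vehicle, though BLM and RBBP8 lost that call when the groups compared were fitted alone (adjusted p = 0.0675 and 0.0889). The exception was MUS81, at -0.42 ± 0.20 in R1881 and -0.23 ± 0.20 in vehicle (adjusted p = 0.134 and 0.44). In R1881 MUS81 passed as lower with replicates 1 and 2 only, at -0.33 (adjusted p = 0.00763). It also passed there when the groups compared were fitted alone, at -0.46 (adjusted p = 0.0121).

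EME1 (chr17:50373220-50381483, plus strand) is the regulatory partner of MUS81, with which it cuts branched DNA. With R1881 EME1 was at 11.0, 11.1 and 12.4 CPM with E2F1 siRNA, at 3.89, 5.02 and 5.91 CPM with E2F2 siRNA, and at 19.8, 19.7 and 18.9 CPM with control siRNA. With vehicle EME1 was at 10.5, 11.2 and 11.6 CPM with E2F1 siRNA, at 2.87, 2.55 and 3.96 CPM with E2F2 siRNA, and at 8.75, 11.0 and 12.4 CPM with control siRNA. Every E2F2 siRNA library lay below every other library of its treatment. EME1 rose 1.81-fold with R1881 in control cells (adjusted p = 0.000694) and fell to 25.4% of control with E2F2 siRNA in R1881 (log2 -1.98 ± 0.17, adjusted p = 4.46e-07). The catalytic partner MUS81 was at 20.5, 20.1 and 25.1 CPM with E2F1 siRNA, 15.1, 17.1 and 16.1 CPM with E2F2 siRNA, and 20.6, 20.1 and 24.1 CPM with control siRNA in R1881. Exons of LRRC59 on the opposite strand cover 16.42% of EME1 and those of CFL1 13.86% of MUS81.

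Of the 6 checkpoint genes, 4 rose with R1881 in control cells, 2 fell with E2F1 siRNA and 4 with E2F2 siRNA in R1881, and 3 fell with E2F2 siRNA in vehicle. ATM and ATR, the kinases that sense breaks and stalled forks, were called in none of the 5 comparisons, with log2 fold changes of 0.34 ± 0.33 and 0.01 ± 0.31 for E2F2 siRNA in R1881. Both had a low replicate 3 in control siRNA with vehicle, and with replicates 1 and 2 only some comparisons passed. ATM was then at -0.50 for R1881 in control cells, at 0.21 for E2F2 siRNA with R1881 and at 0.34 for E2F2 siRNA with vehicle (adjusted p = 1.18e-05, 0.0379 and 0.00132). ATR was at 0.20 for R1881 in control cells (adjusted p = 0.0189). The effector kinase CHEK1 rose by 0.82 with R1881 in control cells and fell by 1.57 with E2F2 siRNA in R1881 (adjusted p = 0.00324 and 1.35e-05), and was at -0.48 ± 0.18 with E2F1 siRNA (adjusted p = 0.133). TOPBP1, which activates ATR, rose by 0.66 with R1881 in control cells and fell by 0.50 with E2F2 siRNA in R1881 (adjusted p = 0.00514 and 0.0234). The call for TOPBP1 with E2F2 siRNA was lost without replicate 1 or 2 of either group or without replicate 3 of E2F2 siRNA (adjusted p = 0.0565 to 0.0705).

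CLSPN (chr1:35720218-35769967, minus strand) encodes claspin, the adaptor through which ATR activates CHEK1. With R1881 CLSPN was at 39.8, 40.4 and 38.6 CPM with E2F1 siRNA, at 20.3, 17.1 and 22.1 CPM with E2F2 siRNA, and at 58.8, 65.1 and 61.5 CPM with control siRNA. With vehicle CLSPN was at 37.9, 34.3 and 32.4 CPM with E2F1 siRNA, at 11.2, 11.3 and 14.5 CPM with E2F2 siRNA, and at 37.5, 38.2 and 29.0 CPM with control siRNA. With vehicle E2F1 siRNA and control siRNA overlapped fully, and E2F2 siRNA lay far below both. CLSPN rose 1.77-fold with R1881 in control cells (adjusted p = 0.000147) and fell with E2F2 siRNA by 1.64 ± 0.13 in R1881 and by 1.50 ± 0.13 in vehicle (adjusted p = 2.34e-07 and 7.75e-07).

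CHEK2 (chr22:28687743-28742422, minus strand), the effector kinase downstream of ATM, had the highest level in control cells with R1881 as well. With R1881 CHEK2 was at 18.4, 18.2 and 15.4 CPM with E2F1 siRNA, at 10.6, 10.2 and 10.6 CPM with E2F2 siRNA, and at 24.8, 26.3 and 24.7 CPM with control siRNA. With vehicle CHEK2 was at 18.6, 16.4 and 15.9 CPM with E2F1 siRNA, at 9.89, 8.68 and 8.1 CPM with E2F2 siRNA, and at 15.1, 14.5 and 12.3 CPM with control siRNA. The E2F1 siRNA libraries were at one level under both treatments, above control in vehicle and below it in R1881. CHEK2 rose 1.81-fold with R1881 in control cells (adjusted p = 2.86e-05), fell by 0.54 with E2F1 siRNA and by 1.27 with E2F2 siRNA in R1881 (adjusted p = 0.00484 and 6.66e-07), and was at 0.28 ± 0.11 with E2F1 siRNA in vehicle (adjusted p = 0.209).

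**Figure D4:**
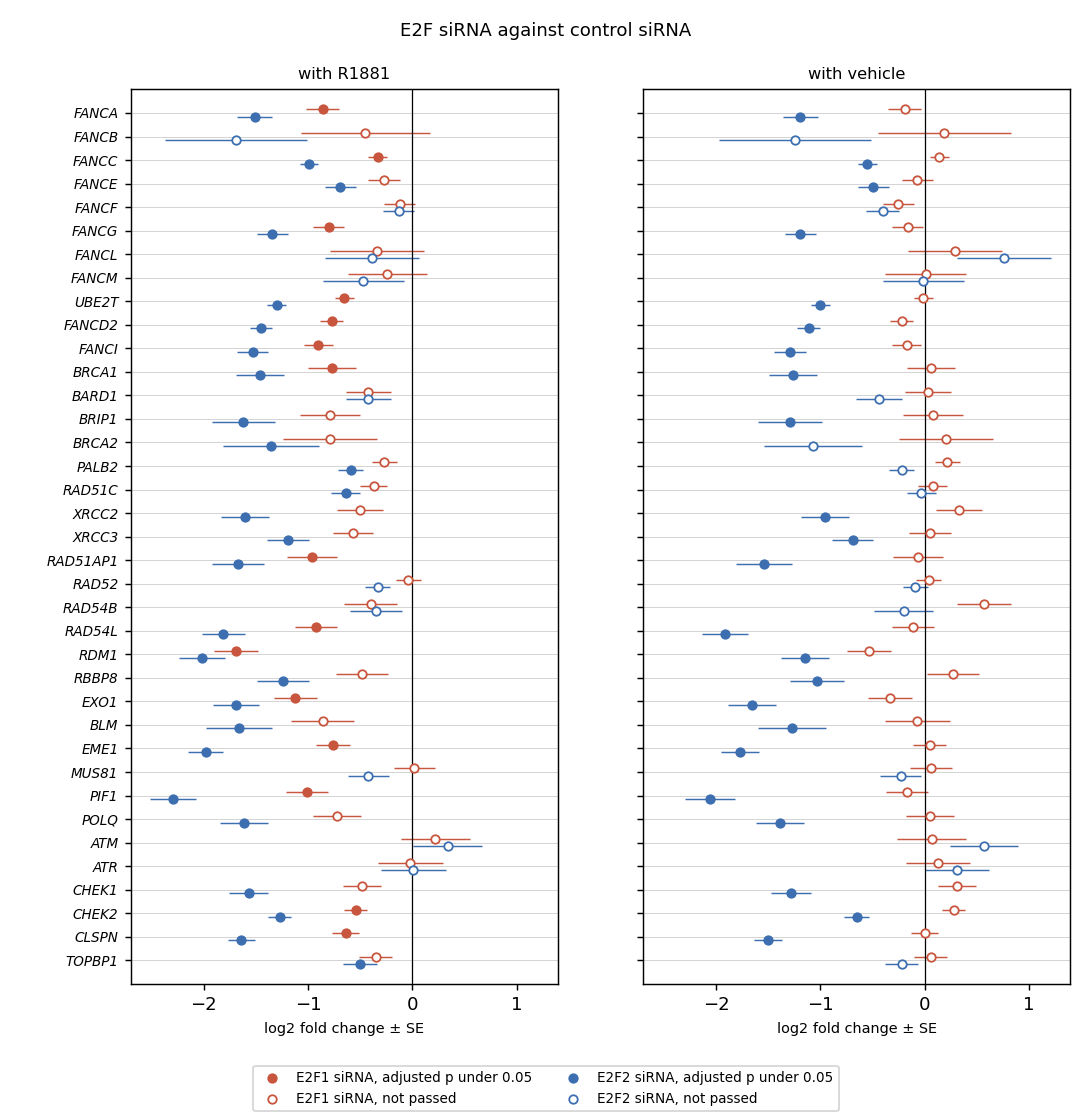
Log2 fold change ± SE of each of the 37 genes for E2F1 siRNA (red, above) and E2F2 siRNA (blue, below) against control siRNA, with R1881 (left) and with vehicle (right); filled points passed the test. With R1881 15 red and 27 blue points are filled, all below 0, and with vehicle 0 red and 23 blue.

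For the E2F pools with R1881 and vehicle the calls depended on how the replicates were treated. For E2F1 siRNA with R1881, the block on replicate number gave 24 of 37, all lower, where it called 19.9% of all tested genes in either direction, adding BRCA2, BRIP1, RAD51C, RAD54B, XRCC3, BLM, CHEK1, TOPBP1 and POLQ. A fit to the libraries of E2F1 and control siRNA with R1881 alone gave 26, all lower, and 15.2% of all tested genes. For E2F1 siRNA with vehicle, 0 genes were called by edgeR and by DESeq2, and 3 had an unadjusted p under 0.05. Those were RDM1 at -0.53 ± 0.21, CHEK2 at 0.28 ± 0.11 and RAD54B at 0.57 ± 0.26. For E2F2 siRNA with vehicle, the calls of BLM, FANCE and XRCC3 were lost without replicate 2 of E2F2 siRNA, those of FANCE and XRCC3 also without replicate 1 of E2F2 siRNA or replicate 3 of control siRNA (adjusted p = 0.051 to 0.0924). The block added FANCB, FANCF, BRCA2 and BARD1 as lower and FANCL and ATM as higher there.

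R1881 was also set against vehicle within the silenced cells. In E2F1 siRNA cells 1 of 37 rose, UBE2T by 0.43 ± 0.09 (adjusted p = 0.00213), and 1 fell, BARD1 as above, while 10.1% of all tested genes rose and 9.75% fell. In E2F2 siRNA cells 10 of 37 rose and none fell, where 11.8% of all tested genes rose. The 10 were FANCG, UBE2T, FANCI, BRCA1, RAD51AP1, RAD54B, RAD54L, EXO1, EME1 and CLSPN, with log2 fold changes of 0.55 to 1.04. The median log2 fold change of the 37 was 0.06 in E2F1 siRNA cells, 0.37 in E2F2 siRNA cells and 0.75 in control cells. In E2F2 siRNA cells the count was 18 with the block (16 higher, 2 lower; 36.2% of all tested genes), 22 with replicates 1 and 2 only (45.5% of all tested genes), and 6 without replicate 1 of the vehicle libraries or without replicate 3 of the R1881 libraries. The block added FANCA, XRCC3, CHEK1, TOPBP1, PIF1 and POLQ as higher and FANCL and BARD1 as lower. Of the 10, BRCA1, EME1, EXO1, FANCG and RAD54B each lost the call without at least 1 library (adjusted p = 0.0536 to 0.143), and EME1 also when those 2 groups were fitted alone (adjusted p = 0.0611). In E2F1 siRNA cells the count was 9 with replicates 1 and 2 only (5 higher, 4 lower), where 38.3% of all tested genes were called. In control cells the calls of BLM, BRIP1 and XRCC2 were lost without replicate 1 or 2 of R1881 or replicate 3 of vehicle, PALB2 and RDM1 without replicate 2 of R1881, and RDM1 also without replicate 1 of vehicle (adjusted p = 0.0501 to 0.132). The block in control cells added FANCE, FANCM, BRCA2 and RBBP8 as higher and BARD1 as lower.

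**Figure D5:**
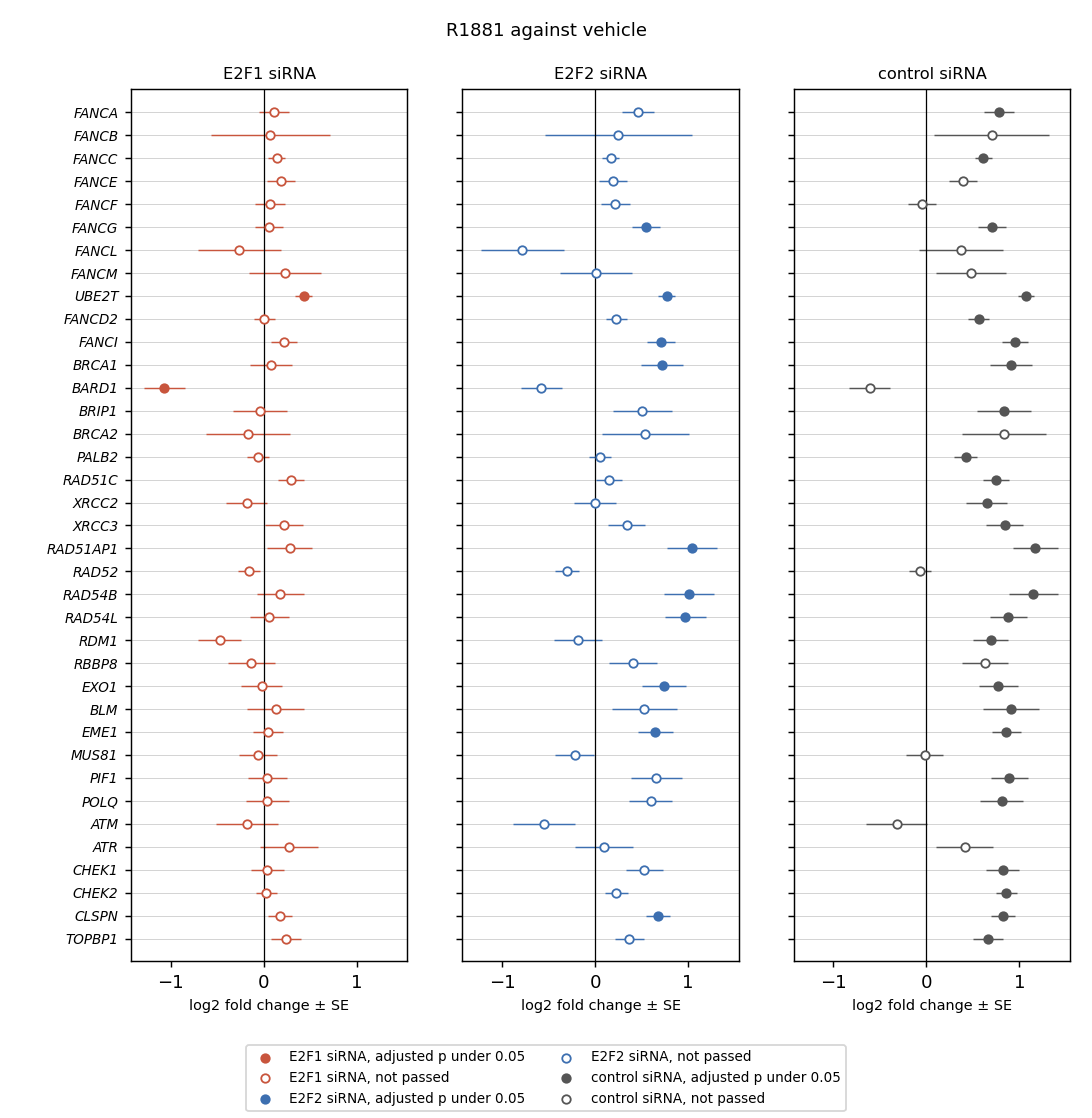
Log2 fold change ± SE of each of the 37 genes for R1881 against vehicle in cells with E2F1 siRNA (left), E2F2 siRNA (middle) and control siRNA (right), on one scale; filled points passed the test. Filled points number 2 with E2F1 siRNA (UBE2T to the right, BARD1 to the left), 10 with E2F2 siRNA and 25 with control siRNA, the last all above 0.

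The difference between these responses was tested directly. The R1881 response was smaller in E2F1 siRNA cells than in control cells for UBE2T, by 0.64 ± 0.13 on the log2 scale, and for CHEK2, by 0.82 ± 0.16 (adjusted p = 0.0282 and 0.0235). These were 2 of 37, where 0.310% of all tested genes had a lower response, and 23 of the 37 had an unadjusted p under 0.05. The median difference of the 37 was -0.64. With the block the count was 16 of 37 (4.58% of all tested genes), all with a smaller response in E2F1 siRNA cells, adding FANCA, FANCC, FANCD2, FANCG, FANCI, RAD51AP1, RAD54B, RAD54L, XRCC3, CHEK1, CLSPN, EME1, RDM1 and PIF1. With replicates 1 and 2 only the count was 25 (12.1% of all tested genes), and by DESeq2 it was 7 (2.30% of all tested genes). With no filter on low counts it was 0, where 0.0746% of all tested genes were called. A fit to the 4 groups alone gave 0, where 0.142% of all tested genes were called. The count was also 0 without replicate 1, 2 or 3 of E2F1 siRNA with R1881, without replicate 1 or 2 of control siRNA with R1881 or without replicate 1 of E2F1 siRNA with vehicle. It was 1 without replicate 3 of E2F1 siRNA with vehicle, replicate 3 of control siRNA with R1881 or replicate 1 of control siRNA with vehicle, where CHEK2 kept the call. Among the fits without 1 library, the adjusted p of a lost call was 0.0561 to 0.103. For UBE2T and CHEK2 it was 0.235 and 0.128 with no count filter, and 0.0948 and 0.122 in the fit to the 4 groups. For E2F2 siRNA against control the response differed for 0 of 37 (0.889% of all tested genes in either direction), by edgeR and by DESeq2, with 7 at an unadjusted p under 0.05 and a median difference of -0.29. CHEK2 had the value nearest the threshold there, at -0.62 ± 0.16 (adjusted p = 0.102), and with replicates 1 and 2 only 5 of 37 passed, all lower, as did 11.6% of all tested genes.

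The E2F pools were also set against each other. With R1881, 18 of 37 genes were higher with E2F1 siRNA than with E2F2 siRNA and none was lower, where 11.0% of all tested genes were higher. With vehicle, 24 of 37 were higher and none was lower, where 14.4% of all tested genes were higher. The smallest p with R1881 belonged to CLSPN (1.00 ± 0.13), UBE2T (0.65 ± 0.09), EME1 (1.22 ± 0.17) and FANCC (0.66 ± 0.09), with adjusted p of 4.45e-05 to 9.52e-05. With vehicle it belonged to CLSPN (1.50 ± 0.13), UBE2T (0.99 ± 0.09), EME1 (1.82 ± 0.18) and CHEK1 (1.59 ± 0.20), with adjusted p of 5.94e-07 to 1.48e-05. The comparison sets a pool that lowered both E2F1 and E2F2 mRNA beside a pool that lowered E2F1 further. With the E2F1 pool, E2F2 was at -1.22 ± 0.38 against control siRNA in R1881 and at -0.29 ± 0.38 in vehicle (adjusted p = 0.0586 and 0.817). With R1881 the count was 28 with replicates 1 and 2 only (44.7% of all tested genes) and 11 without replicate 2 of E2F2 siRNA, where FANCA, FANCG, BRCA1, RAD51AP1, XRCC3, RBBP8 and POLQ lost the call (adjusted p = 0.0553 to 0.155). With vehicle FANCE, RAD54B, PALB2, XRCC3 and BLM each lost the call without at least 1 library (adjusted p = 0.0526 to 0.156), and FANCE also with no count filter (adjusted p = 0.0764). The block added FANCB, BRCA2, BARD1 and TOPBP1 as higher and FANCL and ATM as lower with vehicle.

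Related genes outside the set had smaller median changes. Of 57 other tested Fanconi and recombination genes, R1881 raised 15 and lowered 2 in control cells, E2F1 siRNA lowered 10 and E2F2 siRNA lowered 20 and raised 1 in R1881. With vehicle E2F1 siRNA lowered 1 and E2F2 siRNA lowered 15 and raised 3. Their median log2 fold change was -0.20 for E2F1 siRNA and -0.34 for E2F2 siRNA in R1881. The ubiquitin ligase RFWD3 fell with each pool under each treatment, by 0.84 with E2F1 siRNA and by 1.11 with E2F2 siRNA in R1881, and by 0.39 and 0.84 in vehicle (adjusted p = 7.8e-06, 6.78e-08, 0.00631 and 1.11e-06). MCM8, a helicase of recombination, rose by 1.07 with R1881 in control cells (adjusted p = 4.77e-05), and RPA2, a subunit of the single-strand binding protein, fell by 0.86 with E2F2 siRNA in R1881 (adjusted p = 5.83e-06).

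Of 19 other tested checkpoint and damage-signalling genes, R1881 raised 7 in control cells, E2F1 siRNA lowered 5 and E2F2 siRNA lowered 10 in R1881, and E2F1 siRNA lowered 2 and E2F2 siRNA lowered 7 in vehicle. None moved the other way in these comparisons. The 2 that fell with E2F1 siRNA in vehicle were RNF168, a ubiquitin ligase at breaks, by 0.75 and CDC25A, a phosphatase that CHEK1 targets, by 0.65 (adjusted p = 0.000196 and 0.000784). TIMELESS, a fork protein, fell by 1.34 with E2F2 siRNA in R1881 and MDC1, a scaffold at breaks, by 1.21 (adjusted p = 4.54e-07 and 2.27e-05). Of 13 end-joining genes, which serve the competing repair route, R1881 raised 4 in control cells, E2F1 siRNA lowered 2 and E2F2 siRNA lowered 6 in R1881, and E2F2 siRNA lowered 4 in vehicle. PARP1 fell by 0.49 with E2F1 siRNA and by 0.55 with E2F2 siRNA in R1881 (adjusted p = 0.000548 and 3.96e-05), and PRKDC, the kinase of end joining, fell by 0.61 with E2F2 siRNA (adjusted p = 0.000197).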

How the data were processed

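RNA of 18 LNCaP libraries was made with the TruSeq RNA Exome capture kit, per the labels' protocols. The submitters' processing notes name CASAVA 1.8.2, TopHat2 2.0.13, Picard 1.97, Subread 1.6.4 and GRCh38, and the deposited table holds raw counts per gene; neither the strand setting nor the gene annotation is stated there. Positions, exon lengths and GC content came from GENCODE 29, which held 57433 of 58037 identifiers. No line without a gene entered the counts.

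The counts, 10930204 to 14819879 per library, were filtered by edgeR's rule on group (minimum count 10, minimum total 15) to 15185 genes and scaled by TMM. Using edgeR 4.0.16 in R 4.3.3, one model of 6 group means over the 18 libraries was tested by quasi-likelihood F test, and p-values were adjusted by Benjamini-Hochberg over all tested genes and called under 0.05. The common biological coefficient of variation was 0.167. The SE of a log2 fold change is its size over the square root of F. CPM are TMM-scaled, and levels per kb use exon length.

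Values in every library are given for the 4 genes with the smallest p in each of 5 comparisons (R1881 in control cells, each pool against control with each treatment) and for any gene called against the others; other pathway genes named are among the 3 called ones with the smallest p in a comparison. MUS81, which is also given by library, and the genes of the promoter windows were picked after their values were seen. The genes and lists were chosen with earlier results of these data known. The test was checked on simulated counts.

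Alternatives were RLE scaling, no count filter, a CPM filter (at least 1 in 3 libraries), DESeq2 1.42.0, only the groups compared, replicates 1 and 2, each library left out, and the replicate number as a block, alone or with a GC correction. The labels do not say what a number marks. Same-numbered libraries deviated together with r above 0.1 for every pair in 8 of 11 comparisons. Deviations were taken from the group mean, so the shared deviation of replicate 3 by itself can give such r. These r therefore do not show that the numbers mark pairs, and the block is kept as an alternative only. The other comparisons were E2F2 siRNA against control and E2F1 against E2F2 siRNA with R1881, and the difference in response with E2F2 siRNA (lowest r 0.08, 0.09 and 0.08). P-values measure the spread between these replicates. Some genes of the lists are not reported here.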

Additional observations from a re-analysis of the deposited data

Results flagged for a closer look

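For UBE2T, the ubiquitin-conjugating enzyme of the Fanconi pathway, the R1881 response differed between E2F1 siRNA and control siRNA, with a difference of -0.64 on the log2 scale (log2 response 0.43 ± 0.09 with E2F1 siRNA and 1.07 ± 0.09 with control siRNA). For CHEK2, the effector kinase, the difference was -0.82 (0.03 ± 0.11 with E2F1 siRNA and 0.86 ± 0.11 with control siRNA). In both, the difference itself passed the edgeR test over all genes (adjusted p = 0.0282 and 0.0235). Leaving out single libraries took the adjusted p of each to 0.0561 to 0.103 in the fits in which the call was lost.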

How the results depend on the processing

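No call of a repair gene turned its direction under any alternative run, and of 6142 values of a gene under an alternative 5641 kept their side of the threshold, 357 passed newly and 144 no longer passed. RLE scaling and the CPM filter moved no count by over 1.5 times. With the libraries compared alone the counts were 12 of 37 for R1881 in control cells, 26 for E2F1 siRNA with R1881 and 0 for the difference in response with E2F1 siRNA. That last count was also 0 with no count filter and 7 by DESeq2. For that difference the share of all tested genes called was 0.142%, 0.0746% and 2.30% in the same order. With replicates 1 and 2 only, counts that moved were R1881 in E2F1 siRNA cells 9, R1881 in E2F2 siRNA cells 22, E2F1 siRNA with R1881 30, E2F1 siRNA with vehicle 3, E2F1 against E2F2 siRNA with R1881 28, and the differences 25 (E2F1) and 5 (E2F2). With the replicate block the counts were 18 for R1881 in E2F2 siRNA cells, 24 for E2F1 siRNA with R1881, 1 for E2F1 siRNA with vehicle, 16 for the difference with E2F1 siRNA and 4 for that with E2F2 siRNA (4.33% of all tested genes for the last). Where not every r between same-numbered libraries was above 0.1, the block gave 32 for E2F2 siRNA with R1881 and 25 for E2F1 against E2F2 siRNA with R1881. There it called 45.6% and 38.5% of all tested genes. The block with GC correction gave 6 and 25 for R1881 in E2F1 and E2F2 siRNA cells, 28 and 5 for E2F1 siRNA with R1881 and vehicle, 29 for E2F1 against E2F2 siRNA with R1881, and 28 and 5 for the differences with E2F1 and E2F2 siRNA. In the same order it called 40.9%, 46.2%, 31.0%, 22.5%, 48.5%, 13.9% and 12.0% of all genes tested, so the counts rose over all genes as well. Where every r between same-numbered libraries was above 0.1, the block changed no other call than those named in the report. The cause of these moves was not tested.

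Leaving out 1 library at a time gave 20 to 26 for R1881 in control cells, 2 to 2 in E2F1 siRNA cells and 6 to 11 in E2F2 siRNA cells. E2F1 siRNA gave 12 to 14 with R1881 and 0 to 3 with vehicle, and E2F2 siRNA 25 to 28 and 20 to 26. E2F1 against E2F2 siRNA gave 11 to 17 with R1881 and 20 to 24 with vehicle, and the differences 0 to 3 (E2F1) and 0 to 0 (E2F2). FANCB, RDM1 and PIF1 had the lowest counts in a single library, at 9, 10 and 12. For FANCB that was replicate 3 of control siRNA with vehicle (0.601 CPM), a library of 14563300 counts. The part of depth in these values was not tested.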

Other observations

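Pseudogenes of the repair genes took few counts over the 18 libraries: FANCD2P2 had 25 against 13189 for FANCD2, and CHEK2P2 had 5 against 3582 for CHEK2. Per kb of exon and in control cells with R1881, BARD1 was at 29.8 CPM and FANCI at 20.7 CPM, next below UBE2T at 34.3 CPM. Among the other Fanconi and recombination genes, those that R1881 lowered in control cells were BABAM2 by 0.38 (adjusted p = 0.0047) and FBH1 by 0.27 (adjusted p = 0.0341), picked out after their values were seen.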
